A study of Mus musculus with 12 samples.

Results

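The Polycomb group was represented here by 10 genes, Ezh1, Ezh2, Eed and Suz12 of Polycomb repressive complex PRC2 and Bmi1, Ring1, Rnf2, Cbx2, Cbx7 and Cbx8 of Polycomb repressive complex PRC1. Members were the probe sets whose only gene symbol in the array annotation was that of these genes, 28 of the 45037 probe sets on the array, for 10 of the 18193 genes that had a probe set. RNA had been measured on 12 Affymetrix mouse arrays, 3 in each of 4 groups. Msi2 mutant bcCML and wild-type bcCML were leukaemic stem cells of a blast crisis chronic myelogenous leukaemia initiated with BCR-ABL plus NUP98-HOXA9, and were sorted as Lin- cells. Msi2 mutant AML and wild-type AML were leukaemic stem cells of a de novo acute myelogenous leukaemia initiated with MLL-AF9, and were sorted as Lin-Sca1-ckit+ cells. All 4 groups arose from KLS stem and progenitor cells that were infected with the oncogenes and transplanted, with no drug treatment. The mutant donors were Msi2 Gt/Gt, homozygous for a gene trap in the RNA-binding protein gene Msi2, and the strain label of all samples names that gene trap line. Age, the number of animals per array and the cell type in which the trap acts are not stated in the labels.

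Polycomb proteins keep genes silent through chromatin. In PRC2, Ezh2 or its relative Ezh1 methylates lysine 27 of histone H3 (H3K27), while Eed and Suz12 hold the enzyme active. In PRC1, Ring1 or Rnf2 ubiquitinates histone H2A, Bmi1 stimulates that activity, and Cbx proteins such as Cbx2, Cbx7 and Cbx8 bind the methylated lysine. In blood, Bmi1 is known for self-renewal of stem cells and for repression of the Cdkn2a locus, and MLL-AF9 leukaemia is known to need several Polycomb proteins.

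Promoters of 9 members were found in the RefSeq table (build GRCm38.p6), each with 250 bases before and 50 bases after the transcription start. Those of Cbx8 and Rnf2 are shown because these genes were called lower in bcCML, that of Ezh1 because its dimmer probe set differed between the leukaemias too, and that of Ezh2 because it encodes the main enzyme and did not pass the threshold. They lie at chr11:119040864-119041163 for Cbx8, chr1:151500942-151501241 for Rnf2, chr11:101226414-101226713 for Ezh1 and chr6:47594981-47595280 for Ezh2, all on the minus strand and written 5′ to 3′ along the gene. Capitals mark the motifs that were searched on both strands, which were the GC box GGGCGG, the CCAAT box CCAAT, the E-box CACGTG, the ETS core CCGGAAG and the E2F forms TTTCCCGC and TTTGGCGC.
Cbx8: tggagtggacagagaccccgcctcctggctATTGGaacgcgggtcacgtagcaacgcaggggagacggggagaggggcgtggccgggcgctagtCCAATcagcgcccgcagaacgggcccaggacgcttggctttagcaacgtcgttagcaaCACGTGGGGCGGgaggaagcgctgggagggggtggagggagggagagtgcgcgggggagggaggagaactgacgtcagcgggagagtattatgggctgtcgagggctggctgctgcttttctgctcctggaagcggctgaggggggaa
Rnf2: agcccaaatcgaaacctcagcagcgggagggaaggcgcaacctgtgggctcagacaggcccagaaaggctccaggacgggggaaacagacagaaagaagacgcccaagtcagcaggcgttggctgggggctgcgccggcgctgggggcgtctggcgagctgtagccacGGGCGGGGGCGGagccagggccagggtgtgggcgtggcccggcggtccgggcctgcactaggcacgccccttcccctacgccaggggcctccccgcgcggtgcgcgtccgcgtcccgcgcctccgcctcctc
Ezh1: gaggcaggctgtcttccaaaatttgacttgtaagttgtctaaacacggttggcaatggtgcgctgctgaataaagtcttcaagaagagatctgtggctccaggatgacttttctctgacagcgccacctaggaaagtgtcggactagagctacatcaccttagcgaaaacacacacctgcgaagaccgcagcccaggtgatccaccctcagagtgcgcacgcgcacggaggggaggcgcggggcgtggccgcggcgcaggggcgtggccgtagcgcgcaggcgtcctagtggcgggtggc
Ezh2: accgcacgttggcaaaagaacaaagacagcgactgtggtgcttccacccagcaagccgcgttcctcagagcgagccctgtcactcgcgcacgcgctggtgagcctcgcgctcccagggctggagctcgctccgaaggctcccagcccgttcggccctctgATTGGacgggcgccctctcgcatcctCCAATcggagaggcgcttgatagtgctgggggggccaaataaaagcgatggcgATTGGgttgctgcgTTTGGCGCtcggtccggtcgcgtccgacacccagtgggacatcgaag
In the Cbx8 promoter an E-box is directly followed by a GC box, and 2 CCAAT boxes lie further upstream. The Rnf2 promoter held 2 adjacent GC boxes, the Ezh2 promoter 3 CCAAT boxes and the second E2F form 4 bases after the start, and the Ezh1 promoter held none of these letters. Of 32851 promoters of the same length in the table, 35.7% held the GC box, 37.4% the CCAAT box, 7.15% the E-box, 8.86% the ETS core, 1.07% the first E2F form and 0.514% the second. The first E2F form was found in the Suz12 promoter, 219 bases before the start. The 9 promoters held between 17 and 41 CpG dinucleotides, against a median of 7 and quartiles of 3 and 20 over all promoters in the table. A match of letters describes the sequence and no binding was measured here.

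Values are GCRMA intensities on a linear scale, with a lowest value of 4.49 on every array, and 16 units (log2 of 4) was used as the level above which a probe set counted as measured. A gene was tested where a probe set exceeded that level on at least 3 arrays, and it was represented by its brightest such probe set. This kept 10817 genes, or 59.5% of those with a probe set, and 9 of the 10 Polycomb genes with 16 of their 28 probe sets. Differences are given on the log2 scale with their standard errors from limma, fitted to all 12 arrays. P values were adjusted by the Benjamini-Hochberg method across all 10817 tested genes, the threshold is 0.05, and all tests are two-sided. The first principal component held 76.2% of the variance and separated bcCML from AML. AML mutant array 1 stood apart from the other AML arrays on the second component, and its monocyte marker level was the lowest of the AML arrays (mean log2 intensity of 8.43, against 10.1 to 10.7 on the other AML arrays). Kit, which the AML sort selected for, lay between 78.2 and 546 units on the bcCML arrays and between 169 and 435 units on the AML arrays. Msi2 itself was lower in mutant cells, with 605 ± 117 units in mutant bcCML against 3827 ± 1085 units in wild-type bcCML, and 69.6 ± 17.0 units in mutant AML against 312 ± 125 units in wild-type AML (SD, n = 3; limma adjusted p = 0.0200 and 0.0211). The Msi2 call was lost in AML without wild-type AML array 1 (adjusted p = 0.0876) and in bcCML without that array, wild-type bcCML array 2 or 3 or mutant bcCML array 1 or 3 (highest adjusted p = 0.0737), while its difference stayed at or below -1.83 and -2.48 on leaving out any array.

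Loss of Msi2 moved no Polycomb gene past the threshold. Of the 9 tested members, 0 were called in mutant against wild-type bcCML, where 0.139% of all tested genes were called, and 0 in mutant against wild-type AML, where 1.52% were called. In each leukaemia 1 member had an unadjusted p under 0.05, against 8.32% of all genes in bcCML and 14.2% in AML. For the mean of both effects 0 members were called, against 0.471% of genes, and 1 had an unadjusted p under 0.05, against 13.7%. For the difference between both effects 0 members were called, where 0% of genes passed (limma; 1014 genes had an unadjusted p under 0.05, and 1 of them was a member). Median differences of the 9 members were -0.00 in bcCML and -0.01 in AML, against -0.02 and -0.05 over all tested genes.

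In the core of PRC2 the mutant and wild-type arrays overlapped for Ezh2, Eed and Suz12 in both leukaemias. Ezh2, the methyltransferase, measured 2196, 2075 and 1883 units in mutant bcCML, against 1894, 1820.4 and 1794 units in wild-type bcCML. In AML it measured 1839.9, 1345 and 1947 units in mutant cells, against 1837, 1994 and 1382 units in wild-type cells. The mutant minus wild-type difference was 0.16 ± 0.18 in bcCML (95% interval -0.24 to 0.56) and -0.02 ± 0.18 in AML (-0.43 to 0.38).

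Eed, which binds the methylated lysine and so recruits the complex to its own mark, measured 1509.8, 1851 and 1833 units in mutant bcCML, against 1335, 1769 and 1628 units in wild-type bcCML. It measured 1959, 2037 and 2187 units in mutant AML, against 1911, 2032 and 1747 units in wild-type AML. Mutant and wild-type arrays overlapped, and the differences were 0.14 ± 0.15 in bcCML and 0.12 ± 0.15 in AML. Suz12, the subunit around which PRC2 assembles, measured 3565, 4231 and 3571 units in mutant bcCML, against 4237, 3900.9 and 3613 units in wild-type bcCML. In AML its brightest probe set read 4820.1, 3659.96 and 4645 units in mutant cells, against 4515, 4346 and 4235 units in wild-type cells. Its differences were -0.05 ± 0.14 in bcCML and -0.01 ± 0.14 in AML, with 95% intervals of -0.37 to 0.27 and -0.33 to 0.31, and its SD over the 12 arrays, 0.155 on the log2 scale, was the smallest of the 9 tested members.

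Ezh1, the second PRC2 methyltransferase and the one known for resting cells, measured 505, 376 and 752 units in mutant bcCML, against 663, 394 and 549 units in wild-type bcCML. It measured 404, 437 and 356 units in mutant AML, against 336, 313 and 353 units in wild-type AML. All 3 mutant AML arrays lay above the wild-type ones, by as little as 356 against 353 units, and the difference of 0.25 ± 0.26 did not pass (limma adjusted p = 0.750). The dimmer Ezh1 probe set differed by -0.11 ± 0.19 in AML, so the probe sets of the gene did not share a direction.

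**Figure D1:**
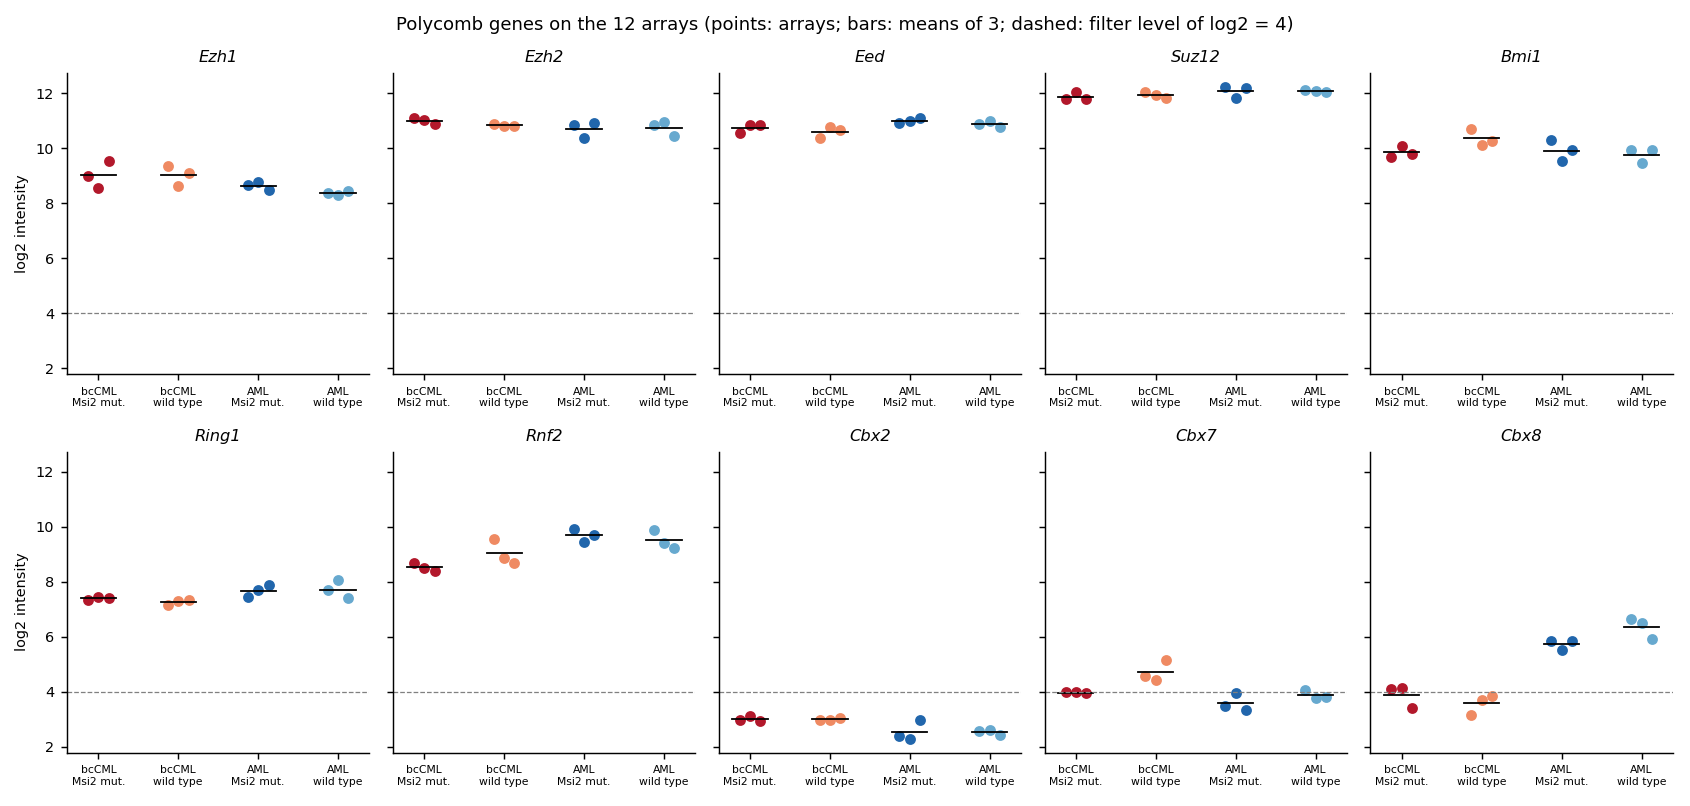
Log2 intensity of the brightest probe set of each Polycomb gene (vertical axis) on the 12 arrays, with points for arrays, bars for group means of 3 arrays and a dashed line at the filter level of log2 = 4. Suz12, Ezh2 and Eed stay in narrow bands in all 4 groups, Cbx8 lies near or below the dashed line in bcCML and above it in AML, and Cbx2 lies below the line on every array.

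The PRC1 enzymes were a second pair without a call. Ring1 measured 161, 173 and 171 units in mutant bcCML, against 143.5, 159 and 161 units in wild-type bcCML, and 172, 209.9 and 237 units in mutant AML, against 206, 266 and 169 units in wild-type AML. The groups overlapped in both leukaemias, with differences of 0.12 ± 0.18 in bcCML and -0.03 ± 0.18 in AML. Rnf2, the more widely studied of both ubiquitin ligases, measured 409, 364 and 331 units in mutant bcCML, against 742, 471 and 409.6 units in wild-type bcCML. The bcCML arrays did not overlap, although the highest mutant array and the lowest wild-type array were nearly equal, and the difference of -0.51 ± 0.25 did not pass (limma adjusted p = 0.633). In AML Rnf2 measured 966, 694 and 833 units in mutant cells, against 945, 676 and 597 units in wild-type cells, a difference of 0.18 ± 0.25. The test of whether both Msi2 effects differ gave -0.70 ± 0.35 for Rnf2 (limma adjusted p = 0.590).

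Bmi1 gave different readings by probe set. The brightest measured 829.7, 1082 and 895 units in mutant bcCML, against 1665, 1107 and 1233 units in wild-type bcCML, a difference of -0.50 ± 0.24 (limma adjusted p = 0.618). The other passing probe set measured 473, 485 and 368 units in mutant bcCML, against 288, 459 and 385 units in wild-type bcCML, a difference of 0.24 ± 0.31. Across the 12 arrays these probe sets of Bmi1 had a Pearson correlation of 0.0984, where the 2 passing probe sets of Rnf2 had 0.962, those of Ezh1 0.824, and the other 4 of Suz12 between 0.691 and 0.858 with the brightest. In AML the brightest Bmi1 probe set measured 1251, 744 and 975.3 units in mutant cells, against 981, 704 and 974 units in wild-type cells, and the groups overlapped.

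**Figure D2:**
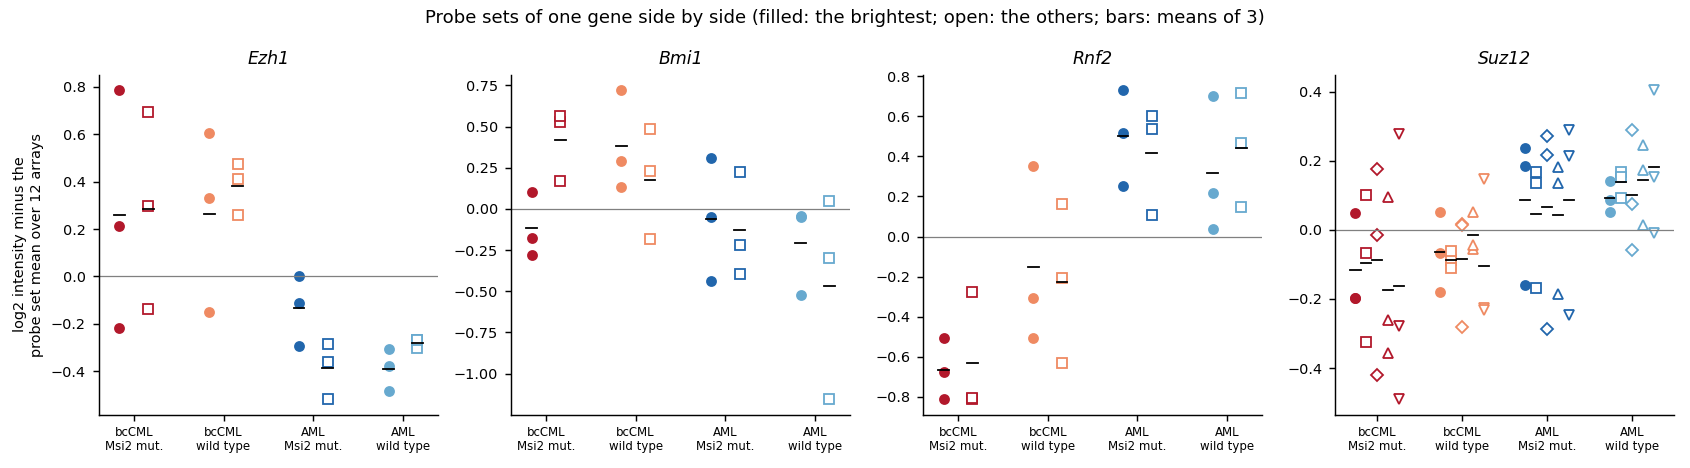
Log2 intensity minus the mean of the same probe set over the 12 arrays (vertical axis) for the passing probe sets of Ezh1, Bmi1, Rnf2 and Suz12 in the 4 groups, with filled points for the brightest probe set, open symbols for the others and bars for means of 3 arrays. Both Rnf2 probe sets run in parallel, while the Bmi1 probe sets place mutant bcCML on opposite sides of their means.

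The Cbx readers of PRC1 were dim, and Msi2 loss was read there close to the filter level. Cbx7, known as the reader that maintains blood stem cell self-renewal, measured 15.7, 15.8 and 15.6 units in mutant bcCML, against 23.6, 21.5 and 35.4 units in wild-type bcCML. The mutant arrays all lay just below 16 units and below every wild-type array. By group means the mutants were at least 1.64-fold lower, which is the wild-type mean against 16 units, and the difference did not pass (limma adjusted p = 0.391). This probe set exceeded 16 units on 4 arrays, the 3 of wild-type bcCML and 1 of wild-type AML, so Cbx7 entered the test only through the group in which it was high, and its values in comparisons with that group are a description. In AML Cbx7 measured 11.03, 15.6 and 10.03 units in mutant cells, against 16.9, 13.8 and 13.97 units in wild-type cells, so 1 of the 6 arrays exceeded 16 units. The other Cbx7 probe sets did not pass the filter. The closer lay between 13.02 and 18.1 units, with a correlation of 0.779 with the brightest over the 12 arrays, and the other between 5.93 units and 24.1 units on mutant AML array 1, with a correlation of -0.12. Cbx8, known as a partner of AF9 and a requirement of MLL-AF9 leukaemia, measured 57.7, 45.7 and 57.5 units in mutant AML, against 99.6, 90.3 and 60.6 units in wild-type AML. The AML groups did not overlap, and the difference of -0.62 ± 0.27 did not pass (limma adjusted p = 0.340). On the other Cbx8 probe set, which did not pass the filter, they overlapped, with 19.09, 12.42 and 14.21 units in mutant AML against 12.05, 18.37 and 15.42 units in wild-type AML. Members whose arrays did not overlap between genotypes numbered 3 in bcCML (Bmi1, Rnf2 and Cbx7, all lower in mutants), against 15.9% of all tested genes, and 2 in AML (Ezh1 higher and Cbx8 lower), against 16.7%.

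Cbx2, another reader, was not tested because neither of its probe sets exceeded 16 units on any array. The brighter measured 7.76, 8.59 and 7.75 units in mutant bcCML, 7.77, 7.94 and 8.19 units in wild-type bcCML, 5.21, 4.88 and 7.76 units in mutant AML and 5.89, 6.16 and 5.39 units in wild-type AML. The other lay between 4.49 and 4.52 units, at the floor of the table.

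Some Polycomb genes were called between the leukaemias, where a large share of all tested genes was called too. By brightest probe set these were PRC1 genes, while the dimmer probe set of the PRC2 gene Ezh1 also passed. Cbx8, which entered the test through AML, was lower in bcCML than in AML whether or not Msi2 was intact. Rnf2 was called lower in mutant bcCML than in mutant AML, and Cbx7, which entered the test through wild-type bcCML, was higher there than in wild-type AML. Of the 9 tested members 2 passed between mutant bcCML and mutant AML, where 45.1% of all tested genes passed (23.2% higher and 21.9% lower), and 2 between wild-type bcCML and wild-type AML, where 36.9% passed (17.7% higher and 19.3% lower). An unadjusted p under 0.05 was found for 2 and 5 members, against 52.3% and 45.9% of all genes. The mutant and the wild-type comparisons use different arrays, and in both the share of members called lay below that of all genes. By unadjusted p the members' share lay below that of all genes in mutant cells and above it in wild-type cells. Oncogene, sorted population and leukaemia changed together between bcCML and AML and cannot be told apart, and in such bulk samples fewer cells of a type and less RNA per cell cannot be told apart either.

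Cbx8 measured 17.1, 17.5 and 10.55 units in mutant bcCML, against 57.7, 45.7 and 57.5 units in mutant AML. It measured 8.98, 13.01 and 14.5 units in wild-type bcCML, against 99.6, 90.3 and 60.6 units in wild-type AML. Every bcCML array lay below every AML array of its genotype. The gene passed the filter through its 6 AML arrays, where it was high, beside 2 of mutant bcCML, so its calls between the leukaemias are a description. In wild-type cells, where all bcCML arrays were below 16 units, Cbx8 was at least 5.11-fold lower in bcCML (log2 difference -2.78 ± 0.27, limma adjusted p = 2.93e-05). In mutant cells the bcCML mean of 15.1 ± 3.91 units, against 53.6 ± 6.87 units in AML (SD, n = 3), also lay below 16 units, so the difference of -1.86 ± 0.27 (limma adjusted p = 0.000321) was only partly measured. The call held on leaving out each of the 12 arrays in both genotypes (highest adjusted p = 0.00183), and the gap between the genotypes, 0.92 ± 0.38, did not pass (limma adjusted p = 0.495). The other Cbx8 probe set did not pass the filter and had a correlation of 0.734 with the brightest. It read 10.18, 7.77 and 10.53 units in mutant bcCML, against 19.09, 12.42 and 14.21 units in mutant AML. In wild-type cells it read 11.48, 8.22 and 10.18 units in bcCML, against 12.05, 18.37 and 15.42 units in AML, a smaller gap than that of the brightest.

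Rnf2 averaged 368 ± 39.2 units in mutant bcCML and 831 ± 136 units in mutant AML (SD, n = 3), a difference of -1.17 ± 0.25 or 2.24-fold lower (limma adjusted p = 0.00355). Its second probe set measured 323, 223 and 223 units in mutant bcCML, against 593, 422 and 566 units in mutant AML, and differed by -1.05 ± 0.25 (limma adjusted p = 0.00723 over 19413 probe sets, of which 42.5% passed). In wild-type cells Rnf2 averaged 541 ± 177 units in bcCML and 739 ± 183 units in AML (SD, n = 3), and the difference of -0.47 ± 0.25 did not pass (limma adjusted p = 0.169). Without wild-type bcCML array 1, the highest of its group, that difference was -0.72 and passed (limma adjusted p = 0.0367). The second Rnf2 probe set differed by -0.67 ± 0.25 in wild-type cells and did not pass (limma adjusted p = 0.0648 over 19413 probe sets, of which 33.5% passed).

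Cbx7 averaged 26.8 ± 7.49 units in wild-type bcCML and 14.9 ± 1.77 units in wild-type AML (SD, n = 3). The difference of 0.82 ± 0.22 had an adjusted p of 0.0139 by limma, which supports nothing further because Cbx7 entered the test through these wild-type bcCML arrays, and its size was only partly measured because the AML mean lay below 16 units. The call rested on wild-type bcCML array 3, without which the difference was 0.60 with an adjusted p of 0.0510. In mutant cells the brightest Cbx7 probe set lay below 16 units on all 6 arrays and no fold is given.

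Ezh1 was higher in bcCML by its dimmer probe set. That probe set measured 124, 91.9 and 164 units in mutant bcCML, against 78.9, 70.7 and 83.0 units in mutant AML. It measured 134, 121 and 140.3 units in wild-type bcCML, against 84.1, 82.1 and 83.9 units in wild-type AML. Both comparisons were free of overlap and passed when every probe set was tested on its own (0.67 ± 0.19, limma adjusted p = 0.0175 in mutant cells, and 0.66 ± 0.19, limma adjusted p = 0.0236 in wild-type cells, where 42.5% and 33.5% of probe sets passed). The brightest Ezh1 probe set, on which the gene was tested, differed by 0.39 ± 0.26 in mutant cells (limma adjusted p = 0.239) and by 0.65 ± 0.26 in wild-type cells (limma adjusted p = 0.0718). The wild-type difference of this probe set passed without wild-type bcCML array 2, mutant bcCML array 2 or mutant bcCML array 3 (adjusted p between 0.0337 and 0.0466).

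The other members did not pass between the leukaemias. In wild-type cells the arrays of 5 members did not overlap (Ezh1, Bmi1 and Cbx7 higher in bcCML, Ring1 and Cbx8 lower), against 52.4% of all tested genes, and in mutant cells those of 3 did not (Eed, Rnf2 and Cbx8, all lower), against 55.5%. The brightest Bmi1 probe set differed by 0.59 ± 0.24 in wild-type cells (limma adjusted p = 0.0765) and -0.06 ± 0.24 in mutant cells. The other passing Bmi1 probe set differed by 0.65 ± 0.31 in wild-type and 0.55 ± 0.31 in mutant cells (limma adjusted p = 0.135 and 0.175 over all passing probe sets), so the probe sets differed in mutant cells. Ring1 differed by -0.28 ± 0.18 in mutant cells and -0.44 ± 0.18 in wild-type cells (limma adjusted p = 0.229 and 0.0806), and the wild-type value passed without wild-type AML array 3 (-0.60, adjusted p = 0.0278). Ezh2 differed by 0.28 ± 0.18 and 0.10 ± 0.18, Eed by -0.26 ± 0.15 and -0.27 ± 0.15, and Suz12 by -0.20 ± 0.14 and -0.16 ± 0.14, each time with the mutant value first. Medians of the 9 members were -0.20 in mutant and -0.16 in wild-type cells, against 0.03 and 0.00 over all tested genes.

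**Figure D3:**
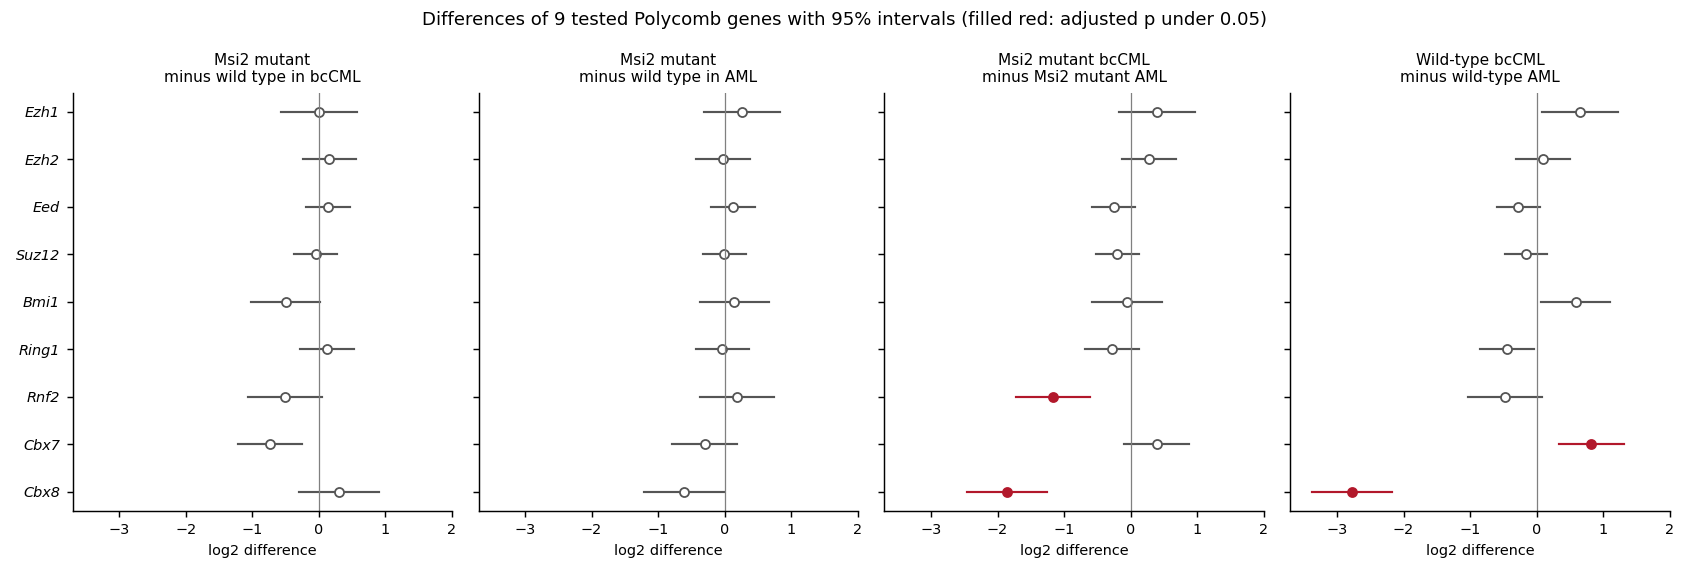
Log2 differences (horizontal axis) of the 9 tested Polycomb genes in 4 comparisons, with points for estimates, lines for 95% intervals of the limma fit and filled red points for adjusted p under 0.05. No point is filled in the panels for Msi2 loss, Rnf2 and Cbx8 are filled between mutant leukaemias, and Cbx7 and Cbx8 between wild-type leukaemias.

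Several genes that bind or complete the core complexes differed between the leukaemias. Of 6 tested PRC2 partners 1 was higher and 2 lower in mutant bcCML than in mutant AML, and 2 were higher and 2 lower in wild-type bcCML than in wild-type AML, with medians of -0.05 and 0.01, where 45.1% and 36.9% of all tested genes passed. Jarid2, which helps to recruit PRC2, averaged 2675 ± 364 units in mutant bcCML against 4889 ± 601 units in mutant AML, and 2986 ± 472 units in wild-type bcCML against 4814 ± 622 units in wild-type AML (SD, n = 3). Its differences were -0.87 ± 0.18 and -0.69 ± 0.18 (limma adjusted p = 0.00258 and 0.0112). Rbbp7, a histone-binding subunit, rose by 0.80 ± 0.13 in mutant and 0.52 ± 0.13 in wild-type bcCML (limma adjusted p = 0.000576 and 0.00886), and Aebp2 rose by 0.61 ± 0.16 in wild-type bcCML (limma adjusted p = 0.0118), a call that ended with the mean of its passing probe sets (0.17, adjusted p = 0.514). Phf19, which binds methylated H3 tails, lay below 16 units on all bcCML arrays, with AML levels of 17.4 ± 6.61 units in mutant and 22.2 ± 5.43 units in wild-type cells (SD, n = 3). It exceeded 16 units only on AML arrays, namely wild-type arrays 1 and 2 and mutant array 1. Phf19 thus entered the test through the leukaemia in which it was high, and its calls are a description. By group means it was at least 1.35-fold lower in wild-type bcCML (limma adjusted p = 0.0086). It was also called lower in mutant bcCML (limma adjusted p = 0.0309), but mutant AML arrays 2 and 3 read 12.56 and 14.69 units, so no fold is given there. The mutant call was lost without array 1 of mutant AML or of mutant bcCML (highest adjusted p = 0.106) and under 4 of 7 processing alternatives (highest adjusted p = 0.0679).

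Of 17 tested PRC1 partners 5 were higher and 3 lower in mutant bcCML than in mutant AML, with a median of 0.26, and 5 were higher and 1 lower in wild-type bcCML than in wild-type AML, with a median of -0.07, where the shares over all tested genes were 45.1% and 36.9%. Cbx6, a further reader of the Cbx family, measured 4198, 5178 and 4633 units in mutant bcCML, against 162, 65.9 and 128 units in mutant AML. It measured 3958, 4745 and 4837 units in wild-type bcCML, against 137, 1220.5 and 206 units in wild-type AML, where array 2 stood above the rest. The differences of Cbx6 were 5.39 ± 0.67 and 3.79 ± 0.67 (limma adjusted p = 0.000115 and 0.00145). Pcgf6, which takes the place of Bmi1 in a variant PRC1, averaged 301 ± 30.5 units in wild-type bcCML and 44.5 ± 9.37 units in wild-type AML (SD, n = 3; difference 2.78 ± 0.29, limma adjusted p = 4.52e-05). Phc1, a Polyhomeotic subunit, was higher in bcCML by 2.62 ± 0.36 in mutant and 1.82 ± 0.36 in wild-type cells, while Bcor, a corepressor of variant PRC1, differed by -1.26 ± 0.17 and -0.97 ± 0.17. Phc3, another Polyhomeotic subunit, differed by 0.82 ± 0.19 and 0.60 ± 0.19 (limma adjusted p = 0.0055 and 0.0307), Pcgf3 of a variant PRC1 by 0.84 ± 0.28 between the wild-type groups (limma adjusted p = 0.0379), and Yaf2, which joins variant PRC1, by -0.56 ± 0.14 between the mutant groups (limma adjusted p = 0.00881). The wild-type call of Phc3 was lost without any of 5 arrays (highest adjusted p = 0.0904) and that of Pcgf3 without any of 6 (highest adjusted p = 0.136), and both were lost without wild-type AML array 1 or wild-type bcCML array 2 or 3. Pcgf3 also lost its call under 3 of 8 processing alternatives (highest adjusted p = 0.22).

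Pcgf6 was also the 1 partner called for Msi2 loss, in AML, where 1.52% of all tested genes were called. It measured 8.72, 14.6 and 21.0 units in mutant AML, against 44.6, 53.8 and 35.1 units in wild-type AML, with no overlap (log2 difference -1.66 ± 0.29, limma adjusted p = 0.0259). The mutant mean lay below 16 units, so the size was only partly measured. In bcCML it measured 317, 316 and 253 units in mutant cells, against 285, 283 and 337 units in wild-type cells, and the difference between both effects did not pass (1.63 ± 0.41, limma adjusted p = 0.213). The AML call ended with the mean of all Pcgf6 probe sets (adjusted p = 0.149), with the 6 AML arrays alone (0.215) and when any of 4 arrays was left out, namely arrays 1 and 2 of wild-type AML, array 2 of mutant AML and array 3 of wild-type bcCML (highest 0.0966). No other partner passed for Msi2 loss in either leukaemia, and an unadjusted p under 0.05 was found in bcCML for 0 of the 6 PRC2 and 1 of the 17 PRC1 partners and in AML for 0 and 4. Over all tested genes that share was 8.32% in bcCML and 14.2% in AML.

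**Figure D4:**
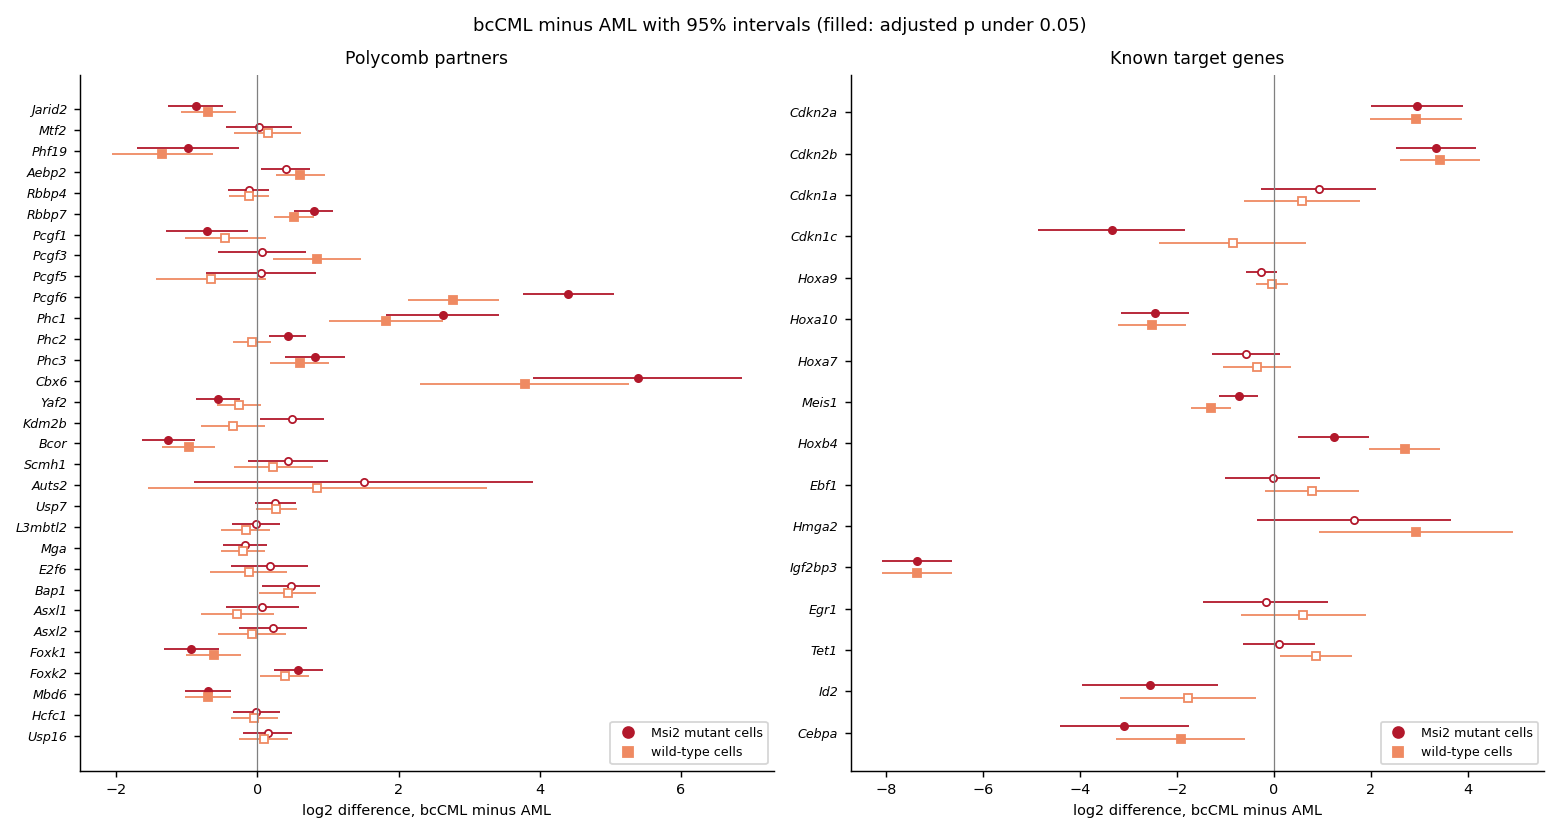
Log2 differences of bcCML minus AML (horizontal axis) for tested partner genes of both complexes and H2A deubiquitinase genes (left) and for known target genes (right), with 95% intervals of the limma fit, circles for Msi2 mutant cells, squares for wild-type cells and filled symbols for adjusted p under 0.05. Pcgf6, Phc1 and Cbx6 lie to the right in both genotypes, Bcor and Jarid2 to the left, and Igf2bp3 has the lowest value of the targets shown.

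Genes that act against Polycomb marks were called in both directions between mutant leukaemias. Of 8 tested genes of H2A deubiquitination 1 was higher and 2 lower in mutant bcCML than in mutant AML, and 0 were higher and 2 lower between the wild-type groups. Foxk1, a forkhead factor of that complex, differed by -0.94 ± 0.18 and -0.62 ± 0.18, and Mbd6 by -0.70 ± 0.15 in both (limma adjusted p between 0.00163 and 0.0194), while Foxk2 differed by 0.58 ± 0.16 between the mutant groups (limma adjusted p = 0.0124). The wild-type call of Foxk1 was lost without array 1 or 3 of either wild-type group (highest adjusted p = 0.0702). Of 22 tested Trithorax, H3K27 demethylase, and related genes 1 was higher and 7 were lower in mutant bcCML, and 0 were higher and 3 lower in wild-type bcCML, where 45.1% and 36.9% of all tested genes passed. Men1, the MLL partner menin, was the 1 gene called higher, with 204 ± 53.7 units in mutant bcCML and 80.03 ± 32.4 units in mutant AML (SD, n = 3; difference 1.39 ± 0.30, limma adjusted p = 0.00409). The methyltransferase genes Kmt2c and Setd2 differed by -0.64 ± 0.14 and -0.67 ± 0.18 between the mutant groups (limma adjusted p = 0.00361 and 0.0121). Nsd2, a methyltransferase gene as well, differed by -0.79 ± 0.23 between the mutant and -0.99 ± 0.23 between the wild-type groups (limma adjusted p = 0.0176 and 0.00673), and its mutant call was lost without mutant AML array 3 or mutant bcCML array 1 (highest adjusted p = 0.0665). Both Nsd2 calls ended with the mean of its passing probe sets, and the mutant call also with the mutant arrays alone (highest limma adjusted p = 0.0642 in mutant and 0.0557 in wild-type cells). The H3K27 demethylase gene Kdm6b differed by -0.71 ± 0.20 in mutant and -0.66 ± 0.20 in wild-type cells (limma adjusted p = 0.0136 and 0.0236), while Kdm6a differed by -0.47 ± 0.19 and -0.12 ± 0.19 and did not pass. Ep300, an acetyltransferase that acts on the same lysine, differed by -0.51 ± 0.14 and -0.64 ± 0.14 (limma adjusted p = 0.0127 and 0.00496). The wild-type call of Kdm6b was lost without array 3 of either wild-type group (highest adjusted p = 0.0937), and the mutant call of Ep300 without mutant bcCML array 3 (adjusted p = 0.0501). In neither list was a gene called for Msi2 loss by limma, and an unadjusted p under 0.05 was found for 0 of the 8 and 1 of the 22 genes in bcCML and for 1 of the 8 and 2 of the 22 in AML. Over all tested genes that share was 8.32% in bcCML and 14.2% in AML.

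Genes known as Polycomb targets in blood cells did not move one way. Of 16 tested, 3 were higher and 6 lower in mutant bcCML than in mutant AML, and 4 were higher and 4 lower in wild-type bcCML than in wild-type AML, with medians of -0.21 and 0.27, where 45.1% and 36.9% of all tested genes passed. Cdkn2a, the locus of the Ink4a and Arf tumour suppressors and the best known target of Bmi1, measured 94.2, 189 and 285 units in mutant bcCML, against 14.6, 28.8 and 26.2 units in mutant AML. It measured 159, 161 and 142 units in wild-type bcCML, against 16.8, 15.2 and 32.5 units in wild-type AML. No arrays overlapped, and the differences were 2.95 ± 0.42 and 2.93 ± 0.42, or 7.73-fold and 7.61-fold (limma adjusted p = 0.000303 and 0.000425).

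Cdkn2b, the neighbouring cell cycle inhibitor gene, measured 37.0, 84.9 and 126 units in mutant bcCML and 81.6, 75.9 and 49.1 units in wild-type bcCML, while all AML arrays lay between 5.94 and 7.51 units. It was at least 4.58-fold higher in mutant and at least 4.20-fold higher in wild-type bcCML (limma adjusted p = 5.6e-05 and 6.31e-05). Igf2bp3, an oncofetal RNA-binding protein gene, measured 14.4, 12.9 and 13.8 units in mutant bcCML, against 3310.5, 2758 and 1252 units in mutant AML, at least 141-fold lower (limma adjusted p = 6.61e-08). In wild-type cells Igf2bp3 averaged 15.9 ± 2.03 units in bcCML and 2655 ± 663 units in AML (SD, n = 3). Hoxa10 was lower in bcCML by 2.45 ± 0.31 in mutant and 2.51 ± 0.31 in wild-type cells, and its cofactor gene Meis1 by 0.73 ± 0.18 and 1.30 ± 0.18. Cebpa, a myeloid differentiation factor, averaged 630.3 ± 410.4 units in mutant bcCML and 4186 ± 557 units in mutant AML (SD, n = 3; difference -3.09 ± 0.60, limma adjusted p = 0.00205). Cdkn1c, a cell cycle inhibitor gene, lay near the floor on all bcCML arrays and measured 186, 19.4 and 26.9 units in mutant AML, where it was at least 2.87-fold lower in mutant bcCML (limma adjusted p = 0.0027). Cdkn2b, Igf2bp3 and Cdkn1c passed the filter mainly or wholly through the groups in which they were high. Hoxa9, next to Hoxa10, averaged 3710 ± 327 units in mutant bcCML and 4421 ± 121 units in mutant AML (SD, n = 3), and differed by -0.26 ± 0.15 there and by -0.04 ± 0.15 between the wild-type groups, neither past the threshold.

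**Figure D5:**
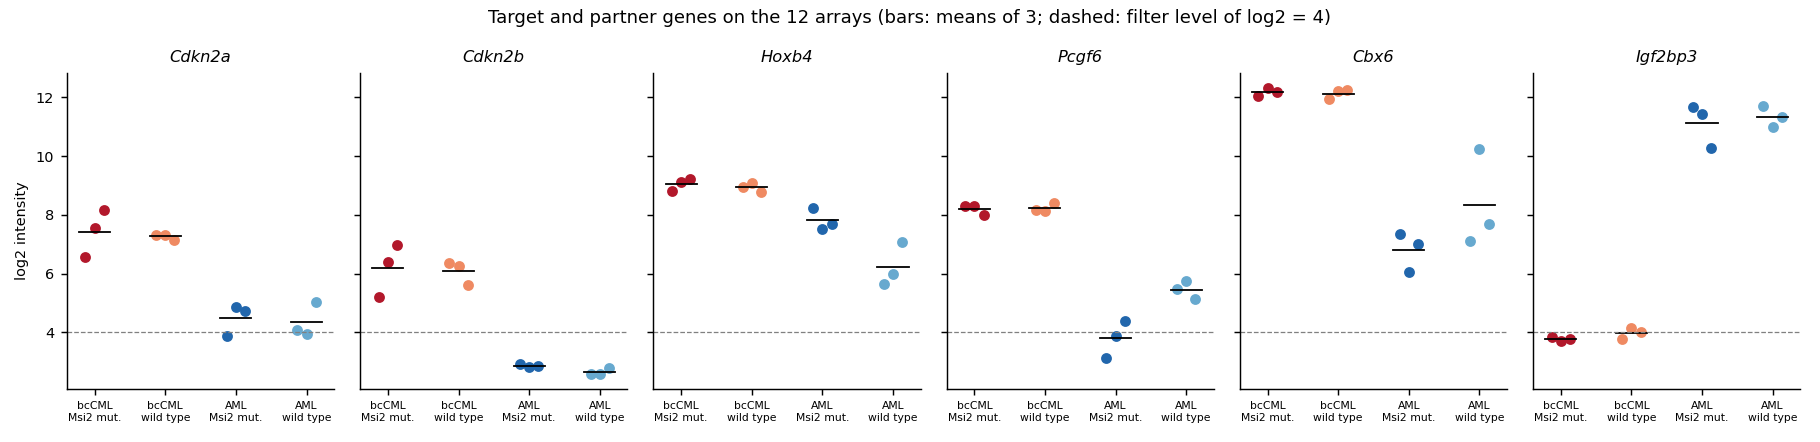
Log2 intensity (vertical axis) of the target genes Cdkn2a, Cdkn2b, Hoxb4 and Igf2bp3 and the PRC1 partners Pcgf6 and Cbx6 on the 12 arrays, with points for arrays, bars for means of 3 arrays and a dashed line at the filter level of log2 = 4. Cdkn2a and Cdkn2b lie high on all 6 bcCML arrays and near or below the line on the AML arrays, and Igf2bp3 lies the other way round.

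Hoxb4, a homeobox gene of blood stem cells, was the 1 target called for Msi2 loss, in AML, where 1.52% of all tested genes were called. It measured 303, 184 and 208 units in mutant AML, against 50.1, 63.8 and 134 units in wild-type AML, with no overlap, a difference of 1.59 ± 0.33 (limma adjusted p = 0.0472). Between the leukaemias Hoxb4 differed by 1.23 ± 0.33 in mutant and 2.70 ± 0.33 in wild-type cells (limma adjusted p = 0.012 and 0.00014). The AML call lay at the threshold and ended without any one of 11 of the 12 arrays (highest adjusted p = 0.162) and with the 6 AML arrays alone (0.272). In bcCML Hoxb4 averaged 537 ± 78.9 units in mutant and 491 ± 50.5 units in wild-type cells (SD, n = 3), and the test of the difference between both effects did not pass (limma adjusted p = 0.366). In bcCML 0 targets were called for Msi2 loss, and 0 had an unadjusted p under 0.05 (limma), against 8.32% of all tested genes. Developmental regulators known as Polycomb targets in embryonic stem cells were almost all dark. Of 22 such genes with a probe set 0 passed the filter and 20 never exceeded 16 units, and the exceptions were Isl1 with 110.3 and Pax6 with 19.1 units, each on 1 array.

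Among genes not called for Msi2 loss, those with the smallest p of each list were as follows. In AML they were Rbbp7 (-0.24) and Phf19 (-0.38) of the PRC2 partners, Foxk1 (0.44) and Foxk2 (-0.30) of the deubiquitination genes, Kmt2c (0.45) and Men1 (-0.82) of the opposing genes and E2f1 (-0.73) and Ccne1 (-0.62) of the cell division genes, with limma adjusted p between 0.119 and 0.683. In bcCML they were Aebp2 (-0.26) and Jarid2 (-0.16), Pcgf3 (-0.68) and Phc3 (0.40), Asxl2 (0.33) and Asxl1 (0.27), Wdr5 (-0.43) and Dpy30 (-0.38), the targets Cebpa (-1.21) and Meis1 (0.33), and the cell division genes Rrm2 (0.24) and Mki67 (0.28), with limma adjusted p between 0.574 and 0.878.

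Blood cell markers and a few cell division genes also differed between the leukaemias, and their part in the results was not tested. Of all tested genes 23.2% were called higher and 21.9% lower in mutant bcCML, and 17.7% higher and 19.3% lower in wild-type bcCML. Of 25 tested cell division genes 0 were higher and 1 lower in mutant bcCML than in mutant AML, and 0 were higher and 3 lower between the wild-type groups (E2f1, E2f2 and Ccne1, of which Ccne1 was lost without 5 of the 6 wild-type arrays in turn). Both shares lay below the 45.1% and 36.9% of all tested genes that passed. Ezh2, a known target of E2f factors, differed by 0.10 ± 0.18 between the wild-type groups while E2f1 was lower by 0.86 ± 0.20 (limma adjusted p = 0.00723). Of 8 tested neutrophil markers all 8 were lower in bcCML in both genotypes, with mean log2 intensities between 5.39 and 6.49 on mutant bcCML arrays against 11.4 and 11.9 on mutant AML arrays. Of 12 tested monocyte markers 0 were higher and 8 lower in mutant bcCML, and 1 was higher (Fcgr1) and 9 lower in wild-type bcCML, with medians of -4.48 and -4.56, and the defining receptor gene Csf1r lay between 4.50 and 5.14 units on all bcCML arrays. All 5 tested erythroid markers were higher in bcCML in both genotypes, with medians of 6.05 and 5.36, where 23.2% and 17.7% of all tested genes were called higher. Gata1, Klf1, Epor and Car1 lay below 16 units on every AML array, so they entered the test only through bcCML and are a description. Hba-a1 never exceeded 4.52 units and Alas2 exceeded 16 units on 1 array, and neither was tested. Other markers also passed the filter only through the leukaemia in which they were high, among them Csf1r, Cd14, Irf8, Itga2b and Ppbp. Of 7 tested megakaryocyte and platelet markers 5 were higher in mutant and 6 in wild-type bcCML, with 0 lower and medians of 3.83 and 4.29. Of 10 stem and progenitor markers 5 were higher and 1 lower in mutant bcCML, and 3 higher and 1 lower in wild-type bcCML, with medians of 1.72 and 0.06. The T cell and NK cell list was mixed, with Thy1 at 1001 to 2359 units on bcCML arrays against 4.51 to 17.02 units on AML arrays and called higher in both genotypes, and with Nkg7 called higher and Cd2 lower in wild-type bcCML. Cd3d, Cd3e and Cd3g, which define T cells, never exceeded 9.53 units, and Gzma reached 969 units but exceeded 16 units on only 2 arrays. Of 3 tested B cell markers 1, Cd79b, was lower in bcCML in both genotypes.

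Some markers also differed with Msi2 loss in AML, where Pcgf6 and Hoxb4 were called, and their part in those calls was not tested. Of all tested genes 1.52% were called there and 14.2% had an unadjusted p under 0.05 (limma). Of 8 neutrophil markers 1 was higher (Ltf) and 1 lower (Mmp8) in mutant than in wild-type AML, with a median of 0.38. Of 12 monocyte markers 0 were higher and 1 lower (Ly86), with a median of -0.40. Of 10 stem and progenitor markers 0 were called and 4 had an unadjusted p under 0.05 (limma), Flt3 and Cd34 having the smallest, and Cd34 measured 312, 101 and 101 units in mutant AML, against 1602, 304 and 1800.3 units in wild-type AML. By limma 0 of the 25 cell division genes, 3 T and NK cell, 3 B cell, 5 erythroid and 7 megakaryocyte markers were called there, and 2, 2, 0, 0 and 0 of them had an unadjusted p under 0.05. In bcCML 0 markers of any of these lists were called for Msi2 loss by limma, where 0.139% of all tested genes were called. An unadjusted p under 0.05 was found there for 4 neutrophil, 1 monocyte and 1 megakaryocyte marker, against 8.32% of all tested genes.

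Profiles most like those of the members over the 12 arrays are listed as a description, since groups and arrays are shared by all genes. By Pearson correlation of log2 intensity, Rnf2 was most like Klhl15 (0.983) and Tmx4 (0.955), Cbx8 like Lamp1 (0.974) and Angptl8 (0.972), and Ring1 like F7 (0.958) and Tmem106a (0.943). Eed was most like Rab33b (0.951) and Fhod1 (0.946), Bmi1 like Hnrnpl (0.913) and Rabl3 (0.898), and Suz12 like Senp5 (0.912) and 2700049A03Rik (0.910). Cbx7 was most like Hsd17b12 (0.904) and Ik (0.888), Ezh2 like Bcl7a (0.896) and Wrn (0.863), and Ezh1 like Plpp1 (0.888) and Smap1 (0.879). The Polycomb genes themselves lie apart in the genome, except that 4 of the 10 (Ezh1, Suz12, Cbx2 and Cbx8) share chromosome 11 with Msi2 and that Cbx2 and Cbx8 are adjacent. Suz12 lies 118 protein-coding genes before Msi2 and Ezh1 268 after it.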

How the data were processed

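RNA of 12 sorted leukaemia samples, 3 labelled as biological replicates in each of 4 groups, was read on 1 Affymetrix array each. The deposited table holds intensity values on a linear scale that the authors summarised per probe set with GCRMA, per the submitters' processing notes, with no version given. GCRMA corrects background and normalizes between arrays, which compresses dim values toward a floor and sets the same overall distribution on every array. Array medians lay between 13.1 and 13.8 units, and no counting depth applies to arrays, whose number limits the precision.

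Intensities were converted to log2 without a pseudocount. The array annotation gave 1 gene symbol for 34945 probe sets, several for 932 and none for 9160 that it did not list. Probe sets above 16 units on at least 3 arrays were kept, the brightest on average stood for its gene, and 10817 genes were fitted with limma 3.58.1 (R 4.3.3) in 1 model of 4 groups with 6 comparisons, after a test of the script on simulated data. Members, lists and tests were chosen with earlier results of these data known. Genes named are all members, called genes of each Polycomb list up to 6 by p or else the 2 with the smallest p, and the 2 most correlated genes per member, without the uncalled pairs for the mean of and the difference between both Msi2 effects. Hoxa9, Kdm6a and the marker genes named, and Ezh2 beside E2f1, were singled out after their values were seen.

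Replicate numbers were checked as pairs by the correlation of same-numbered arrays after removing group means. It was 0.278 to 0.396 in bcCML, where every pair exceeded 0.1 and the numbers were taken to pair the arrays on the data alone, -0.12 to -0.03 in AML, and below 0.1 for at least 1 pair between leukaemias of either genotype. The main fit held no term for these pairs, so its p values ignore them, and a replicate block entered only as an alternative.

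Alternatives were a stricter filter and none, a pseudocount, quantile normalization, other rules for probe sets, fewer arrays in the fit, another variance prior, a replicate block and leaving out each array.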

Additional observations from a re-analysis of the deposited data

How the results depend on the processing

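Rnf2 in mutant cells and Cbx8 kept their calls. Cbx8 entered the test through the AML arrays, on which it was high, so its calls are a description. Cbx8 stayed called in every alternative that tested it, with bcCML minus AML differences of -1.86 to -1.17 in mutant cells (highest adjusted p = 0.00248) and -2.78 to -1.80 in wild-type cells (highest adjusted p = 0.000795), and Rnf2 in mutant cells lay between -1.17 and -1.11 (highest adjusted p = 0.00884). With a filter at log2 above 6, Cbx7 and Cbx8 were not tested, so 1 member was called in mutant cells and 0 in wild-type cells. With the mean of all passing probe sets 4 members were called in wild-type cells, where Ezh1 (0.65, adjusted p = 0.0334) and Bmi1 (0.62, adjusted p = 0.0274) were added. With an intensity trend in the variance prior 1 was called there, since Cbx7 had an adjusted p of 0.0545. With every passing probe set fitted alone, 3 members were called in each genotype, Ezh1 being the addition. Leaving out each array gave 2 to 2 called members in mutant cells, 1 to 3 in wild-type cells, and 0 to 0 for the Msi2 comparisons.

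With the replicate block over all 12 arrays, 2 members were called in mutant and 2 in wild-type cells, and 0 for Msi2 loss in bcCML and in AML. With the block within each leukaemia, 0 were called in all Msi2 comparisons, so the pairing changed no member call. It ended the AML calls of Hoxb4 (adjusted p = 0.132) and Pcgf6 (adjusted p = 0.0914). Outside the members, the mean of passing probe sets ended the Kdm6b calls (adjusted p = 0.0503 in mutant and 0.0853 in wild-type cells) and the Msi2 call in bcCML (0.194), and fitting the 6 arrays compared alone ended both Msi2 calls (0.169 in AML, 0.194 in bcCML) with the same direction. The mean of passing probe sets also ended both Nsd2 calls (limma adjusted p = 0.0557 in wild-type cells).

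Of 1086 values for 54 pairs of member and comparison, 1041 kept direction and side of the threshold, 2 ended a call, 7 gained one and 36 changed sign, and 0 of the changes of sign involved a call. The mean of all passing probe sets turned Bmi1 to 0.25 between mutant leukaemias and 0.057 for the shared Msi2 effect, Suz12 to 0.010 and Msi2 to 1.11 for the difference between both effects, Aebp2 to 0.19 in bcCML, 0.12 shared and 0.15 for that difference, and Asxl1 to -0.060 in bcCML and -0.19 for that difference. Quantile normalization turned Ezh1 in bcCML to 0.044. Leaving out arrays gave signs of both kinds for Msi2 effects in AML of Bmi1 (-0.040 to 0.33), Ezh2 (-0.18 to 0.14), Ring1 (-0.19 to 0.14) and Suz12 (-0.082 to 0.12), and in bcCML of Ezh1 (-0.26 to 0.24) and Suz12 (-0.13 to 0.0086). The same held for shared effects of Ezh1 (-0.0054 to 0.25), Ezh2 (-0.012 to 0.15), Ring1 (-0.034 to 0.13) and Suz12 (-0.069 to 0.034), and for differences between both effects of Eed (-0.10 to 0.11), Ring1 (-0.012 to 0.32) and Suz12 (-0.17 to 0.032). Between leukaemias it held for Bmi1 in mutant cells (-0.25 to 0.13) and Ezh2 in wild-type cells (-0.061 to 0.20). The cause of these changes was not tested beyond what each alternative leaves out. Cbx2 and Cbx7 lie near the floor, where the summary compresses differences, and 3 arrays per group leave intervals much wider than the smaller differences.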
